A study of Mus musculus with 2 samples.

Results

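CD8 T cells that carried transcripts of the natural killer (NK) lectin receptors Klre1, Klrk1 and Klrc2 made up 1847 of the 20322 cells kept from 2 mouse bone marrow libraries. They were 917 of 7955 cells in the library labelled Irf4-/- and 930 of 12367 in the library labelled WT. A cell was a member on its raw UMIs, which count single captured transcripts. It had at least 2 UMIs of Cd3d, Cd3e and Cd3g together, at least 1 of Cd8b1 and at least 2 of Klre1, Klrk1 and Klrc2 together. It had 0 UMIs of the B cell gene Cd79a, of the gamma-delta receptor gene Trdc and of Ccr2, and at most 1 of the division genes Mki67 and Top2a. These 12 genes chose the cells, so their values below describe the choice. In what follows, (Irf4-/-) and (WT) stand for the libraries so labelled.

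The study profiled single bone marrow cells sorted as NK cell progenitors from Irf4-/- mice, which lack a transcription factor of lymphocyte activation, and from wild-type C57BL/6 mice. The gate took cells without lineage markers, Sca-1, NK1.1, Ncr1 or c-kit, that carried CD122, which Il2rb encodes. There was 1 library per genotype, so no difference has a replicate check and no test was made. The Irf4 allele and its deleted part, the age and sex of the mice and whether marrow was pooled are not given in the sources used here.

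CD8 T cells recognise antigen through an alpha-beta T cell receptor with the CD8 alpha and beta chains as coreceptor. Many memory-like CD8 T cells, including the virtual memory cells of unprimed mice, also carry lectin receptors better known from NK cells, which read MHC class I and stress ligands. Klrk1 encodes the activating receptor NKG2D, which in mice signals through Hcst (DAP10) and Tyrobp (DAP12). Klrc2 encodes NKG2C and Klrc1 the inhibitory NKG2A, which both pair with Klrd1 (CD94) and bind Qa-1. Klre1 encodes a receptor that pairs with Klri1 or Klri2, and the Klra genes encode the Ly49 receptors for MHC class I.

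The 3 lectin genes of the rule lie in the NK gene complex of chromosome 6, with Klrd1 between Klre1 and Klrk1, and their upstream sequences are shown because these genes define the cells. That of Xcl1, a chemokine gene on chromosome 1 that was high in the members, is shown for comparison. Each is the 250 bases before the transcription start in RefSeq's promoter table for GRCm38.p6, read in the direction of the gene. Capitals mark TGTGGT, the core of RUNX sites, and in Xcl1 also GGTGTNA, a T-box core, on either strand. The matches did not overlap. The table has 2 entries each for Klre1 and Klrc2, and the first with a TGTGGT match is shown. The Klre1 stretch lies inside the gene's full span, chr6:129559365-129585828, before an internal start. Those of Klrk1 and Klrc2 lie at the upstream ends of chr6:129610323-129623903 and chr6:129649602-129660737.
Klre1, chr6:129577963-129578212, plus strand: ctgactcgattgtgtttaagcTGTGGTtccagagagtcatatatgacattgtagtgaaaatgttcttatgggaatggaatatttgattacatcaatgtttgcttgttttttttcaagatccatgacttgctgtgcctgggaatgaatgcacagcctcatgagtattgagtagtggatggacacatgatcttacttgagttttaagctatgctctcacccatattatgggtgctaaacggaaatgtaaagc
Klrk1, chr6:129623865-129624114, minus strand: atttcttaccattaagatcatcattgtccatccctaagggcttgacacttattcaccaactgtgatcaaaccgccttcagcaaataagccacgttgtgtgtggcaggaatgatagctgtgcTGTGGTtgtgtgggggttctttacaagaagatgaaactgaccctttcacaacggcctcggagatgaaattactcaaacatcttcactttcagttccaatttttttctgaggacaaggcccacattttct
Klrc2, chr6:129660597-129660846, minus strand: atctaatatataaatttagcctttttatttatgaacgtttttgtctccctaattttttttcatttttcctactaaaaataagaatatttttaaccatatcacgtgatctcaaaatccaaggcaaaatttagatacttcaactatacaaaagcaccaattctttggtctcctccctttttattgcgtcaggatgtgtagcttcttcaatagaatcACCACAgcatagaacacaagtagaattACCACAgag
Xcl1, chr1:164935523-164935772, minus strand: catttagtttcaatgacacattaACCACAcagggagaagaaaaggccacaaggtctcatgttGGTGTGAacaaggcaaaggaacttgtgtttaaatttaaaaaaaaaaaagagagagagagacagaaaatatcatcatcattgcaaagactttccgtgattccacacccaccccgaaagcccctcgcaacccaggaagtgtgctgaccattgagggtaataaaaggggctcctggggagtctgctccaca
TGTGGT or its complement was in 14.0% of the 32851 upstream stretches of that length in the table, GGTGTNA in 8.61% and the other motif searched, TGACNTCA, in 7.49%. Of the 11 genes with an entry among 12 looked up, the 3 lectin genes and 3 of the others, Klra1, Xcl1 and Cd160, had TGTGGT in at least 1 stretch. Klra1, Xcl1 and Cd160 also had GGTGTNA, and none of the 11 had TGACNTCA.

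The libraries held 82599767 UMIs under the Irf4-/- label and 95031071 under the WT label. Barcodes were kept with at least 500 genes, at least 1000 UMIs and under 10% mitochondrial UMIs. Members had a median of 10713 UMIs in the library labelled Irf4-/- and 8161 in the library labelled WT. The 2 libraries shared 25 kept barcodes, of which 3 (Irf4-/-) and 1 (WT) belonged to members. Irf4 was not lower under the Irf4-/- label. Members there had 42 Irf4 UMIs, 3.98 CPM (UMIs scaled to the total of the population), against 8 UMIs, 0.917 CPM, in the library labelled WT. The deleted part is not given, so whether the 3' count lies outside it is unknown and the count does not check the genotype. Directions below therefore compare the libraries by their labels alone. Intervals in parentheses are exact 95% intervals, Poisson for CPM, binomial for ratios and Clopper-Pearson for shares, and they cover counting error only.

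The label of CD8 alpha-beta T cells was checked against genes outside the rule. Trac, the alpha chain constant gene, had 541 (Irf4-/-) and 539.7 (WT) CPM in members, and Trbc2, a beta chain constant gene, 1387 (Irf4-/-) and 1422 (WT) CPM. Cd4 had 0 (Irf4-/-) and 3 (WT) UMIs over all members, and Trav11 and Traj18, the invariant NKT cell segments, had 0. Zbtb16, which encodes the NKT cell factor PLZF, had 3 (Irf4-/-) and 6 (WT) UMIs. Ncr1, an NK cell receptor gated out of the sort, had 0 UMIs in 917 cells, which allows a share of cells with a UMI of up to 0.327% at a floor of 3 counts, and 6 UMIs in the library labelled WT, all in 1 cell. Klrb1c, which encodes the NK1.1 antigen that was also gated out, was at 17.7 (Irf4-/-) and 14.9 (WT) CPM. The summed level of 12 myeloid marker genes was 3.599 (Irf4-/-) and 3.55 (WT) CPM. Il2rb, the gate's positive marker, was at 420.3 (Irf4-/-) and 355 (WT) CPM in members, against 254 (Irf4-/-) and 206 (WT) CPM in CD8 T cells without the lectin transcripts. The other gated-out genes Kit and Ly6a had 10 and 32 UMIs under the Irf4-/- label and 1 and 20 under the WT label. Gamma chain genes were not absent from members. The segment Trgv2 was above its level in CD8 T cells without the lectin transcripts, with log2 ratios of 1.43 (Irf4-/-) and 2.17 (WT). Under the Irf4-/- label the constant gene Tcrg-C2 had a UMI in 27.9% of members and 10.4% of those cells. The part of gamma-delta T cells in this was not tested.

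Cd8b1, a gene of the rule, was low in the members compared with other CD8 T cells. It was at 301 (Irf4-/-) and 440.1 (WT) CPM in members, against 723 (Irf4-/-) and 912 (WT) CPM in cells that met the same rule with 0 UMIs of the 3 lectin genes. A member cell had a median of 2 (Irf4-/-) and 3 (WT) Cd8b1 UMIs, against 7 in both libraries of those cells. Just inside the threshold, a single Cd8b1 UMI was found in 330 members (35.99%) under the Irf4-/- label and 271 members (29.1%) under the WT label. Just outside it, 1750 (Irf4-/-) and 1358 (WT) cells that met the rest of the rule had 0. Cells with a single lectin UMI, just outside the other threshold, numbered 269 (Irf4-/-) and 586 (WT), and 165 (Irf4-/-) and 267 (WT) members had exactly 2. A further 250 (Irf4-/-) and 224 (WT) cells missed only the Ccr2 condition. B cells, which should lack the gene, had a Cd8b1 UMI in 0.508% (Irf4-/-) and 0.959% (WT) of cells at median depths of 4151 (Irf4-/-) and 2974 (WT) UMIs.

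Cd8a, which was not in the rule and encodes the partner chain, was nearer to the level of other CD8 T cells than Cd8b1. It stood at 173 (Irf4-/-) and 174 (WT) CPM in members, 245 (Irf4-/-) and 268 (WT) CPM in CD8 T cells without lectin transcripts and 89.0 (Irf4-/-) and 73.6 (WT) CPM in CD8-negative cells with them. The log2 ratio of members over CD8 T cells without lectin transcripts was -0.50 (Irf4-/-) and -0.62 (WT) for Cd8a, against -1.26 (Irf4-/-) and -1.05 (WT) for Cd8b1. After each cell was thinned to 2000 UMIs, Cd8a was detected in 27.3% (Irf4-/-) and 27.3% (WT) of members, in 39.1% (Irf4-/-) and 41.4% (WT) of CD8 T cells without lectin transcripts and in 13.8% (Irf4-/-) and 12.4% (WT) of CD8-negative cells with them. Before thinning it was detected in 76.0% (Irf4-/-) and 69.9% (WT) of members and in 41.5% (Irf4-/-) and 30.1% (WT) of the CD8-negative cells. The term CD8-negative here means only 0 UMIs of Cd8b1, since many of these cells carried Cd8a. In B cells the thinned shares were 0.309% (Irf4-/-) and 0.499% (WT).

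Under the Irf4-/- label 11.5% of kept cells (10.8% to 12.2%) were members, and under the WT label 7.52% (7.06% to 8.0%), a log2 ratio of 0.62. As shares of cells that met the CD3, Cd79a, Trdc and division conditions they were 17.4% (Irf4-/-) and 10.1% (WT). With every cell thinned to 2000 UMIs before the rule was applied, members were 132 of 7920 cells (1.67%) under the Irf4-/- label and 168 of 12296 (1.37%) under the WT label, a log2 ratio of 0.29. With a minimum of 1 lectin UMI it was 0.28, and with at least 4 Cd8b1 UMIs it was 0.24. It was 0.82 with a minimum of 3 lectin UMIs and 0.81 without the deepest 10% of cells. The sort itself can also set these shares.

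The lectin genes of the rule were carried in different combinations by single cells. Klre1 had a UMI in 77.9% (Irf4-/-) and 64.1% (WT) of members, Klrk1 in 59.3% (Irf4-/-) and 64.3% (WT), and Klrc2 in 67.2% (Irf4-/-) and 49.2% (WT). All 3 were detected together in 280 of 917 cells (30.5%, 27.6% to 33.6%) under the Irf4-/- label and in 152 of 930 cells (16.3%, 14.0% to 18.9%) under the WT label. After thinning to 2000 UMIs all 3 were in 3.49% (2.40% to 4.89%) of members under the Irf4-/- label and 1.18% (0.59% to 2.11%) under the WT label, the same order. Klrk1 as the single gene detected was more common under the WT label, with 7.52% (Irf4-/-) and 18.5% (WT) of cells before thinning and 15.3% (Irf4-/-) and 21.9% (WT) after it. Members with over 8 lectin UMIs were 27.7% (Irf4-/-) and 9.25% (WT). On the CPM scale Klrk1 was at 212 (Irf4-/-) and 215 (WT) CPM, Klre1 at 224 (Irf4-/-) and 168 (WT) CPM and Klrc2 at 138 (Irf4-/-) and 92.96 (WT) CPM. The log2 ratio between the libraries was -0.03 for Klrk1, 0.42 for Klre1 and 0.57 for Klrc2, as a description since these genes chose the cells.

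**Figure D1:**
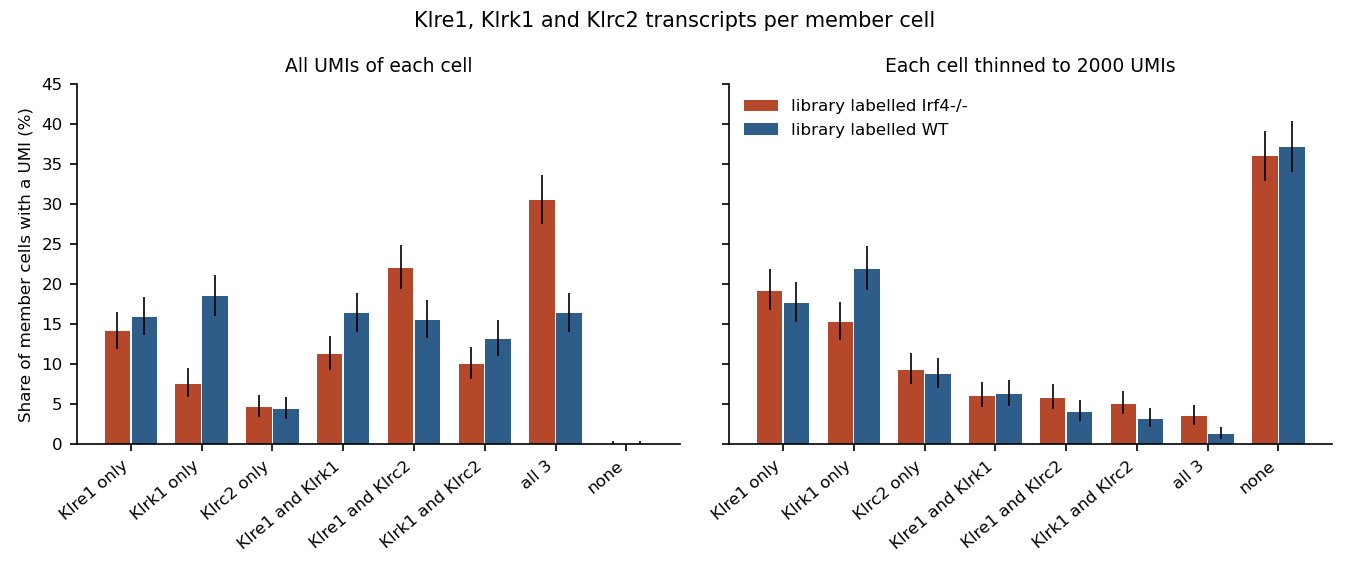
Share of member cells (%) with a UMI of each combination of Klre1, Klrk1 and Klrc2, from all UMIs (left) and after thinning each cell to 2000 UMIs (right). Bars are the 2 libraries and lines exact 95% intervals of counting error. Cells with all 3 transcripts were 30.5% (Irf4-/-) and 16.3% (WT) before thinning, and 3.49% (Irf4-/-) and 1.18% (WT) after it.

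Lectin receptors outside the rule, among them Ly49 genes and Klrc1, were higher in the members than in the other CD8 T cells. The comparison with CD8 T cells without lectin transcripts covered 2159 genes with a mean of at least 50 CPM, none of them from the rule. A gene was called where the log2 ratio was at least 1 in the same direction in both libraries. This gave 8 higher genes (0.371% of those compared) and 1 lower gene (0.0463%). The cells of both sides were chosen on lectin genes, so these ratios describe the choice and its correlates. Of 11 Ly49 genes listed, Klra1, Klra6 and Klra7 were compared and were among the 8. They reached the mean of 50 CPM only through the members, as did Fcer1g and Cd160, so they had to be higher and their count supports nothing. Medians of gene lists below take each gene by the smaller ratio of the 2 libraries, and over all genes compared that median was 0.04.

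The members held 2482 Klra7 UMIs under the Irf4-/- label, or 235 CPM (226 to 245), and 1865 under the WT label, or 214 CPM (204 to 224). CD8 T cells without lectin transcripts had 38.2 (Irf4-/-) and 30.6 (WT) CPM, far below the members in both libraries. The log2 ratio was 2.62 (2.46 to 2.79) under the Irf4-/- label and 2.81 (2.69 to 2.92) under the WT label. Klra1 was at 143 (Irf4-/-) and 129 (WT) CPM in members, against 34.6 (Irf4-/-) and 22.6 (WT) CPM, and Klra6 at 144 (Irf4-/-) and 113 (WT) CPM, against 35.0 (Irf4-/-) and 19.7 (WT) CPM. Klra3 was at 65.6 (Irf4-/-) and 49.2 (WT) CPM and Klra9 at 36.9 (Irf4-/-) and 25.6 (WT) CPM. The Ly49 genes are near-identical copies in part of their length, and how the counting split reads between them was not tested, so the level of a single gene is uncertain. At least 1 of these 5 Ly49 genes had a UMI in 58.5% (Irf4-/-) and 57.1% (WT) of members after thinning, against 20.2% (Irf4-/-) and 12.2% (WT) of CD8 T cells without lectin transcripts. Before thinning the shares were 86.6% (Irf4-/-) and 78.1% (WT), against 38.9% (Irf4-/-) and 22.6% (WT). B cells, which should lack these receptors, gave 9.69% (Irf4-/-) and 2.24% (WT) after thinning, most of it from Klra1, which alone was in 8.66% (Irf4-/-) and 1.62% (WT) of B cells, while Klra7 was in 0.928% (Irf4-/-) and 0.125% (WT). At least 2 of the 5 genes were detected in 22.03% (Irf4-/-) and 19.4% (WT) of members, 4.47% (Irf4-/-) and 2.91% (WT) of the other CD8 T cells, and in 0.103% (Irf4-/-) and 0% (WT) of B cells.

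Of the NKG2 group, Klrd1, the CD94 chain that pairs with Klrc1 and Klrc2, was at 401 (Irf4-/-) and 391 (WT) CPM in members, against 259.8 (Irf4-/-) and 219 (WT) CPM in CD8 T cells without lectin transcripts. Klrc1, the inhibitory NKG2A, was at 69.3 (Irf4-/-) and 37.1 (WT) CPM, against 8.44 (Irf4-/-) and 4.07 (WT) CPM. Its log2 ratios of 3.04 (Irf4-/-) and 3.19 (WT) were larger than those of Klra7, but its mean over both populations was under 50 CPM, so it was not among the genes compared. Klrc3 and the Klre1 partners Klri1 and Klri2 each had at most 29 UMIs in the members of a library. Klrc1, Klrc2 and Klrc3 are close paralogs, so a read may be assigned among them with error.

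Adaptor genes through which such receptors signal differed in how far they stood above the other CD8 T cells. The members held 1223 Fcer1g UMIs under the Irf4-/- label, or 116 CPM (109 to 123), and 954 under the WT label, or 109 CPM (103 to 117). This gene, which encodes the FcR gamma chain, was at 16.8 (Irf4-/-) and 11.6 (WT) CPM in CD8 T cells without lectin transcripts, and its log2 ratios of 2.79 (Irf4-/-) and 3.24 (WT) were the largest of the genes compared. After thinning it was detected in 16.7% (Irf4-/-) and 16.5% (WT) of members, 2.29% (Irf4-/-) and 1.75% (WT) of the other CD8 T cells and 0.825% (Irf4-/-) and 0.249% (WT) of B cells. Tyrobp, the DAP12 adaptor, was low at 18.5 (Irf4-/-) and 9.74 (WT) CPM, against 3.74 (Irf4-/-) and 2.51 (WT) CPM. Hcst, the DAP10 adaptor of NKG2D, was high in both populations at 672 (Irf4-/-) and 626 (WT) CPM in members and 563 (Irf4-/-) and 536 (WT) CPM in the other CD8 T cells. Of 9 partner genes compared, 1 was called higher and 0 lower, with a median ratio of 0.22, where 0.371% of all genes compared were called higher. The called gene was Fcer1g, which reached the mean of 50 CPM only through the members and so had to be higher.

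Among transcription factors Ikzf2, which encodes Helios, stood apart. The members held 2734 Ikzf2 UMIs under the Irf4-/- label, or 259 CPM (249 to 269), and 2126 under the WT label, or 244 CPM (233 to 254). Both libraries of members were above the 97.9 (Irf4-/-) and 73.8 (WT) CPM of CD8 T cells without lectin transcripts, with log2 ratios of 1.40 (Irf4-/-) and 1.72 (WT). Of 8 effector and innate-like factors compared, Ikzf2 alone was called, where 0.417% of all genes compared were called in either direction. Eomes, a T-box factor of memory CD8 and NK cells, was at 87.4 (Irf4-/-) and 96.3 (WT) CPM, against 66.9 (Irf4-/-) and 74.9 (WT) CPM, and Tbx21, which encodes T-bet, at 39.6 (Irf4-/-) and 34.3 (WT) CPM, against 22.9 (Irf4-/-) and 19.3 (WT) CPM. Runx3, which silences Cd4 in the CD8 lineage, was at 121 (Irf4-/-) and 133 (WT) CPM, against 94.6 (Irf4-/-) and 121 (WT) CPM.

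The other genes called higher were Xcl1, a chemokine that attracts XCR1-positive dendritic cells, Anxa2, a membrane-binding annexin, and Cd160, a receptor of NK and memory CD8 cells. Xcl1 was at 292 (Irf4-/-) and 141 (WT) CPM in members, against 86.5 (Irf4-/-) and 42.3 (WT) CPM, Anxa2 at 172 (Irf4-/-) and 164 (WT) CPM, against 60.0 (Irf4-/-) and 50 (WT) CPM, and Cd160 at 142 (Irf4-/-) and 113 (WT) CPM, against 52.9 (Irf4-/-) and 37.0 (WT) CPM. Of 20 virtual memory and memory genes listed, 17 were compared. All 17 were higher in both libraries, with a median ratio of 0.36 and none called, where 64.5% of all genes compared were higher in both. Ccl5, a chemokine stored by memory CD8 cells, was at 5125 (Irf4-/-) and 4935 (WT) CPM, against 2149 (Irf4-/-) and 2944 (WT) CPM. Of 14 cytotoxic effector genes 5 were compared, and all 5 were higher in both libraries, with a median ratio of 0.17 and none called. The granule genes Prf1 and Gzmm were under the minimum of 50 CPM. Prf1, which encodes perforin, was at 32.2 (Irf4-/-) and 32.9 (WT) CPM, against 40.2 (Irf4-/-) and 48.0 (WT) CPM, and Gzmm, a granzyme gene, at 38.1 (Irf4-/-) and 41.0 (WT) CPM, against 35.8 (Irf4-/-) and 42.2 (WT) CPM. The Gimap genes, GTPases of lymphocyte survival, were higher in both libraries for 8 of 8, with a median of 0.26 and none called.

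The single gene called lower was Dapl1, which is high in naive CD8 T cells. The members held 481 Dapl1 UMIs under the Irf4-/- label, or 45.6 CPM (41.6 to 49.8), and 674 under the WT label, or 77.3 CPM (71.5 to 83.3). CD8 T cells without lectin transcripts had 184 (Irf4-/-) and 255 (WT) CPM, giving log2 ratios of -2.01 (Irf4-/-) and -1.72 (WT). Of 14 naive and stem-like genes compared, 1 was called lower and 1 was higher in both libraries, with a median ratio of -0.17. Of all genes compared 0.0463% were called lower and 64.5% were higher in both. Ccr7, the lymph node homing receptor, was at 37.7 (Irf4-/-) and 48.0 (WT) CPM, against 74.6 (Irf4-/-) and 93.7 (WT) CPM, and the factor Lef1 at 169 (Irf4-/-) and 203 (WT) CPM, against 235 (Irf4-/-) and 279.7 (WT) CPM. Tcf7, a factor of naive and memory-stem cells, was close in both populations, at 249 (Irf4-/-) and 302 (WT) CPM, against 260.2 (Irf4-/-) and 297 (WT) CPM.

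Set against CD8-negative T cells with the same lectin transcripts, which had 0 Cd8b1 UMIs but in part carried Cd8a, the members differed at fewer genes. Of 2226 genes compared 0 were called higher (0.0%) and 1 was called lower (0.0449%), which was Fcer1g. It was at 116 (Irf4-/-) and 109 (WT) CPM in members, against 277 (Irf4-/-) and 277 (WT) CPM in the CD8-negative cells, with log2 ratios of -1.26 (Irf4-/-) and -1.34 (WT). Ikzf2 was next among the lower genes, at 259 (Irf4-/-) and 244 (WT) CPM, against 422 (Irf4-/-) and 422 (WT) CPM. The highest genes were Cd8a, with log2 ratios of 0.96 (Irf4-/-) and 1.24 (WT), then Cd5, a tuning receptor of T cell receptor signals, with 0.49 (Irf4-/-) and 0.57 (WT). Themis, a signalling adaptor of thymocytes and T cells, was at 71.2 (Irf4-/-) and 90.1 (WT) CPM, against 54.1 (Irf4-/-) and 56.4 (WT) CPM. Gzmm was below the 50 CPM mean and so not compared, at 38.1 (Irf4-/-) and 41.0 (WT) CPM, against 19.0 (Irf4-/-) and 8.44 (WT) CPM.

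**Figure D2:**
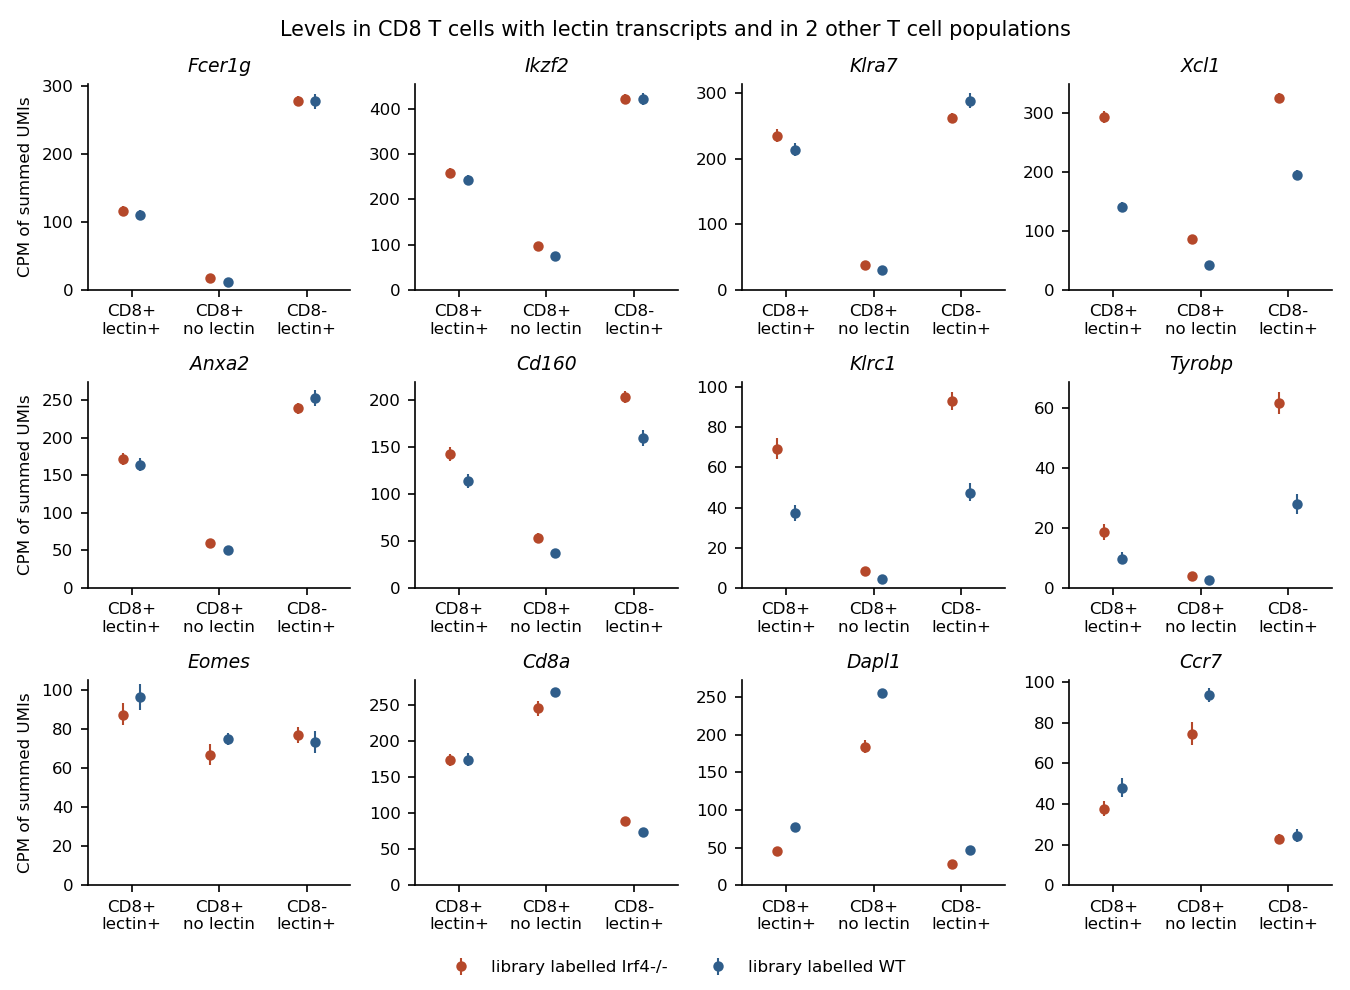
Levels (CPM of summed UMIs, linear axes from 0) of 12 genes in members (CD8+ lectin+), CD8 T cells without lectin transcripts and CD8-negative T cells with them. Points are the 2 libraries and lines exact 95% Poisson intervals. Fcer1g and Ikzf2 in members lie between the other populations, at 116 (Irf4-/-) and 109 (WT) CPM and at 259 (Irf4-/-) and 244 (WT) CPM, and Eomes in members, at 87.4 (Irf4-/-) and 96.3 (WT) CPM, is above both.

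The members lay between these populations at most genes that separate them, which the choice of cells and genes in part builds in. Members met the Cd8b1 condition of the CD8 T cells and the lectin condition of the CD8-negative cells. The genes were picked in the same data because those populations differed, and no background share was computed. In both libraries 17 genes were at least 2-fold higher in the CD8-negative cells with lectin transcripts than in CD8 T cells without them. The members' level was between the 2 populations for 16 of these in the library labelled Irf4-/- and for all 17 in the library labelled WT. On a scale from 0% at the CD8 T cells without lectin transcripts to 100% at the CD8-negative cells, the median position was 73.1% (Irf4-/-) and 73.4% (WT). For the 6 genes that were lower in the CD8-negative cells, all of which lay between, it was 51.9% (Irf4-/-) and 39.0% (WT). Eomes did not follow this pattern, at 87.4 (Irf4-/-) and 96.3 (WT) CPM in members, 66.9 (Irf4-/-) and 74.9 (WT) CPM in the other CD8 T cells and 76.9 (Irf4-/-) and 73.4 (WT) CPM in the CD8-negative cells. Whether single cells are intermediate, or whether the members hold cells of both kinds, was not tested. The summed level of 12 NK and ILC1 marker genes, a list that also holds Fcer1g, Xcl1, Cd160 and Eomes, was 755 (Irf4-/-) and 557 (WT) CPM in members, 262 (Irf4-/-) and 199.8 (WT) CPM in CD8 T cells without lectin transcripts and 1091 (Irf4-/-) and 848 (WT) CPM in the CD8-negative cells. Of its defining genes Ncr1 had 0 (Irf4-/-) and 6 (WT) UMIs in members, as given above. The 9 gamma-delta T cell genes found of 10 listed summed to 79.8 (Irf4-/-) and 52.4 (WT) CPM in members and 34.4 (Irf4-/-) and 17.9 (WT) CPM in the other CD8 T cells, and the part of either cell type in these levels was not tested.

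Within the members, levels moved with the number of Cd8b1 UMIs. The classes held 330 cells with 1 Cd8b1 UMI, 307 with 2 to 3 and 280 with 4 or more under the Irf4-/- label, and 271, 290 and 369 under the WT label. Ikzf2 was at 357, 283 and 145 CPM in these classes under the Irf4-/- label and at 367, 285 and 154 CPM under the WT label. Fcer1g was at 164, 131 and 57.3 CPM (Irf4-/-) and at 181, 133 and 57.7 CPM (WT). Both genes were highest in cells with 1 Cd8b1 UMI in each library, and lowest in those with 4 or more. Klra7 followed the same order, at 308, 252 and 151 CPM (Irf4-/-) and 309, 287 and 119.8 CPM (WT). Dapl1 was highest at 4 or more Cd8b1 UMIs, at 34.4, 32.6 and 68.2 CPM (Irf4-/-) and 35.6, 49.5 and 116 CPM (WT). Cd8a was highest there too, at 152, 161 and 205 CPM (Irf4-/-) and 141, 139 and 214 CPM (WT). Eomes spanned a narrower range, at 92.7, 83.5 and 86.2 CPM (Irf4-/-) and 86.2, 91.8 and 104 CPM (WT). Median depth was 9895, 10441 and 11734.5 UMIs under the Irf4-/- label and 7552, 7747 and 9819 under the WT label, so depth also differed between the classes, and its part in the order was not tested.

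**Figure D3:**
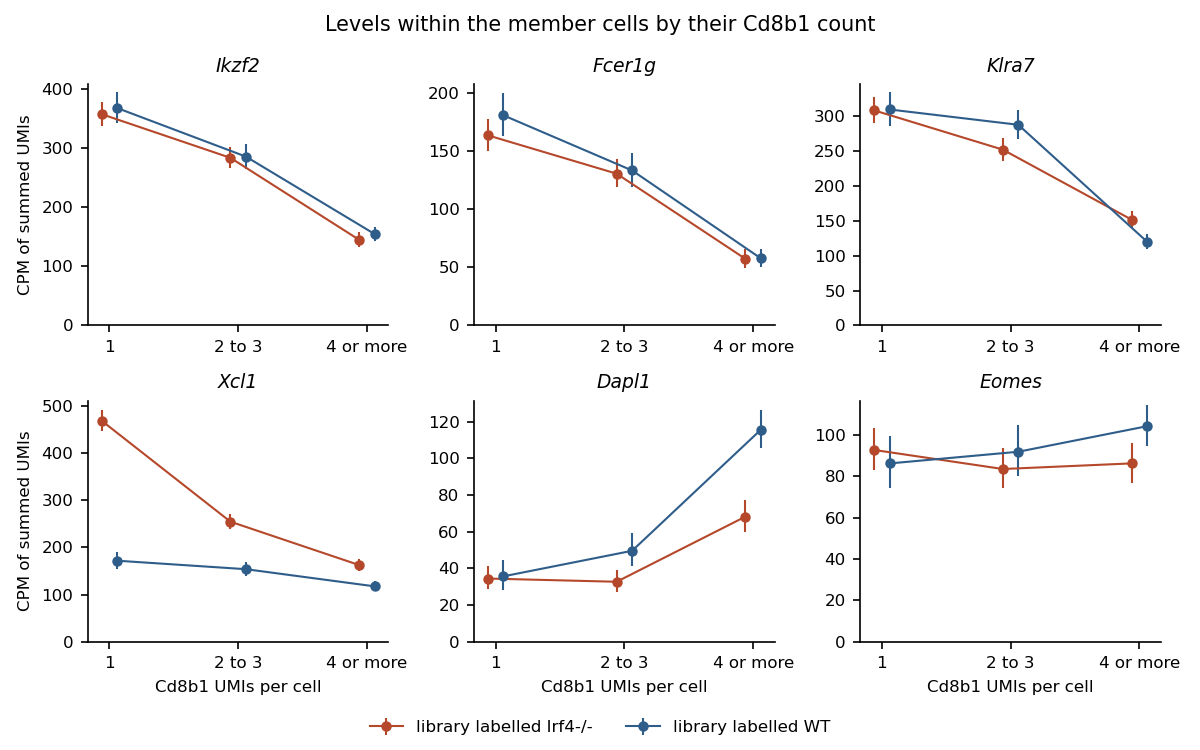
Levels (CPM of summed UMIs) of 6 genes in member cells with 1, 2 to 3 and 4 or more Cd8b1 UMIs. Lines are the 2 libraries and bars exact 95% Poisson intervals. Ikzf2, Fcer1g and Klra7 are highest at 1 Cd8b1 UMI and Dapl1 at 4 or more, in both libraries.

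Ikzf2 and Fcer1g rose with the number of lectin UMIs, whereas they fell with the number of Cd8b1 UMIs. Ikzf2 was at 153, 232, 273 and 325 CPM in cells with 2, 3 to 4, 5 to 8 and over 8 lectin UMIs under the Irf4-/- label, and at 212, 246, 256 and 287 CPM under the WT label. Fcer1g was at 65.7, 89.9, 115 and 164 CPM (Irf4-/-) and at 83.8, 99.0, 112 and 204 CPM (WT). CD8 T cells with a single lectin UMI, just outside the rule, had 150.1 (Irf4-/-) and 141 (WT) CPM of Ikzf2 and 33.0 (Irf4-/-) and 48.6 (WT) CPM of Fcer1g. Those values lay between the members with 2 lectin UMIs and the CD8 T cells with 0.

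The T cell receptor V segments of the members were diverse. Trbv12-2 was the most abundant beta segment, with 14.0% of 694 Trbv UMIs under the Irf4-/- label and 13.1% of 579 under the WT label, against 10.3% (Irf4-/-) and 10.2% (WT) in CD8 T cells without lectin transcripts. Trbv2 took 11.4% (Irf4-/-) and 10.4% (WT) and Trbv13-2 took 5.91% (Irf4-/-) and 11.2% (WT). In all, 22 (Irf4-/-) and 23 (WT) Trbv segments had a UMI. Trav16 and Trav3-3 led the alpha segments, at 6.77% (Irf4-/-) and 9.85% (WT) and at 8.93% (Irf4-/-) and 6.92% (WT). V segments are often near-identical copies, so single shares are uncertain. Of members with at least 2 UMIs of some Trbv segment, 3 of 157 under the Irf4-/- label and 6 of 96 under the WT label had 2 such segments. Doublets of T cells would be among these, and no doublet caller was run.

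Differences between the libraries among the members were counted at a minimum level. Of 2211 genes compared, 17 were higher under the Irf4-/- label (0.769%) and 13 lower (0.588%) by an absolute log2 ratio of at least 0.5, 30 in all (1.36%), and the median over all was -0.01. The lower count was 40 with members thinned to 2000 UMIs and 36 with at least 4 Cd8b1 UMIs. With a minimum of 20 UMIs in place of 50 CPM, 477 of 10485 genes were higher and 621 lower. Among the higher ones were the chemokine Xcl1, the receptors Cxcr6 and Klrc1, the survival kinase Pim2 and the factor Id2. Il7r, the alpha chain of the IL-7 receptor, the cell cycle inhibitor Cdkn1b and the antiproliferative gene Btg2 were among the lower ones. A gene under 50 CPM in 1 library reached the mean only through the other, so its direction was fixed. Among others, this held for Pim2, Cxcr6, Klrc1 and Phb of the higher genes. Of the lower ones it held for Pik3ip1, Dapl1, Fam169b and Mirt1, so the count of such genes supports nothing. With 1 library per genotype the ratios compare 2 libraries, not genotypes.

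Pim2 encodes a serine/threonine kinase induced by cytokine signals through STAT5. The members held 921 Pim2 UMIs under the Irf4-/- label, or 87.2 CPM (81.7 to 93.1), and 352 under the WT label, or 40.3 CPM (36.2 to 44.8). It was detected in 45.4% (Irf4-/-) and 27.3% (WT) of members, and the log2 ratio was 1.11 (0.93 to 1.29). The CD8 T cells without lectin transcripts gave 0.65 and the CD8-negative cells with them 1.33.

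Xcl1 had 3088 UMIs under the Irf4-/- label, 292 CPM, and 1231 UMIs under the WT label, 141 CPM. This gave a log2 ratio of 1.05 (0.96 to 1.15). A single cell held 460 of the UMIs under the Irf4-/- label (14.9%), and 81 of those under the WT label (6.58%). Without the highest cell of each library the ratio was 0.92. After thinning, Xcl1 was detected in 31.1% (Irf4-/-) and 21.2% (WT) of members and in 0.309% (Irf4-/-) and 0.499% (WT) of B cells, and before it in 77.9% (Irf4-/-) and 58.7% (WT) of members. The ratio was 1.45 (1.28 to 1.62) in members with 1 Cd8b1 UMI, 0.73 at 2 to 3 and 0.47 (0.29 to 0.65) at 4 or more, under the 0.5 that marks a call.

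Id2 encodes an inhibitor of E proteins that memory and innate lymphocytes need. The members held 1231 Id2 UMIs under the Irf4-/- label, or 117 CPM (110.2 to 123), and 642 under the WT label, or 73.6 CPM (68.0 to 79.5). This was a log2 ratio of 0.66 (0.53 to 0.80), while it was -0.28 in CD8 T cells without lectin transcripts and 1.39 in CD8-negative cells with them. Within the members it was 1.40 (1.09 to 1.72) at 1 Cd8b1 UMI and 0.14 (-0.07 to 0.35) at 4 or more. As a mean of per-cell CPM the ratio was 0.46.

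The chemokine receptor Cxcr6, found on tissue-homing memory T cells, was at 84.6 (Irf4-/-) and 42.3 (WT) CPM, a log2 ratio of 1.0. Klrc1 was at 69.3 (Irf4-/-) and 37.1 (WT) CPM, a ratio of 0.90 (0.71 to 1.09). The same ratio was 1.05 in CD8 T cells without lectin transcripts and 0.97 in CD8-negative cells with them. The 4 Ly49 genes compared were all above 0, with none called and a median of 0.25, where 48.4% of all genes compared were above 0. Klra3, 1 of the 4, reached the mean of 50 CPM only through the library labelled Irf4-/-, so it had to be above 0. Fcer1g and Ikzf2, which stood high above the other CD8 T cells in both libraries, gave 0.08 and 0.09.

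Ifi27l2a, an interferon-responsive gene, was at 313 (Irf4-/-) and 174 (WT) CPM, a log2 ratio of 0.84, and 0.44 in members with 4 or more Cd8b1 UMIs. Ifit3 and Ifit1bl1, also interferon-induced, went the other way. Ifit3 had 3 UMIs in members under the Irf4-/- label and 387 under the WT label, a log2 ratio of -7.29 (-9.57 to -5.73). Ifit1bl1 had 0 UMIs under the Irf4-/- label and 313 under the WT label, at least 126-fold lower under the Irf4-/- label against a floor of 3 counts over the members. Both were under the mean of 50 CPM and so not compared across genes. Of 13 type I interferon response genes compared, 1 was called higher and 0 lower, with a median of 0.10, where 0.769% of all genes compared were called higher. Of the 35 genes of that list with at least 20 UMIs in members, 17 were above 0, with a median of -0.01. Genes of the MHC class I pathway were above 0 in 13 of 13 compared, where 48.4% of all genes compared were, with a median of 0.23. H2-Q7, a class I gene with close paralogs, was called, at 675 (Irf4-/-) and 475 (WT) CPM, a ratio of 0.51 that was 0.40 in members with 4 or more Cd8b1 UMIs, and B2m, the class I light chain, was at 1664 (Irf4-/-) and 1252 (WT) CPM.

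Il7r, the receptor chain that takes up IL-7 survival signals, had the highest level among the genes called lower. The members held 2889 Il7r UMIs under the Irf4-/- label, or 274 CPM (264 to 284), and 4033 under the WT label, or 462 CPM (448 to 477). Its log2 ratio was -0.76 (-0.83 to -0.69), and -0.58 in CD8 T cells without lectin transcripts and -0.85 in CD8-negative cells with them. Of 14 cytokine receptor genes compared, Il7r alone was called lower and 0 were called higher, where 0.588% of all genes compared were called lower and 0.769% higher. Il2rb, the beta chain for IL-2 and IL-15, was at 420.3 (Irf4-/-) and 355 (WT) CPM, a ratio of 0.24.

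Of 13 genes of cell cycle inhibition and quiescence compared, 4 were called lower and 0 higher, where 0.588% of all genes compared were called lower, with a median of -0.20. Cdkn1b, which encodes p27, was at 112 (Irf4-/-) and 167 (WT) CPM, Btg2 at 131 (Irf4-/-) and 195 (WT) CPM, Slfn1, a Schlafen gene that restrains T cell growth, at 78.4 (Irf4-/-) and 134 (WT) CPM, and Pik3ip1, an inhibitor of PI3 kinase, at 47.6 (Irf4-/-) and 80.3 (WT) CPM. Their log2 ratios in that order were -0.58, -0.57, -0.77 and -0.75. Pik3ip1 reached the mean of 50 CPM only through the library labelled WT, so it had to be lower. Smc4, a condensin subunit, was at 229 (Irf4-/-) and 335 (WT) CPM, a ratio of -0.55. With members thinned to 2000 UMIs the ratios were -0.44 for Btg2, -0.44 for Slfn1 and -0.48 for Smc4, short of a call. Of 13 naive and stem-like genes compared, 2 were called lower and 1 was above 0, where 48.4% of all genes were above 0, with a median of -0.27. Dapl1 was 1 of the 2 called lower, with a ratio of -0.76 (-0.93 to -0.59), which was -0.19 without the deepest 10% of cells of each library and -0.05 in members with 1 Cd8b1 UMI. Dapl1 too reached the mean of 50 CPM only through the library labelled WT, so it had to be lower.

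**Figure D4:**
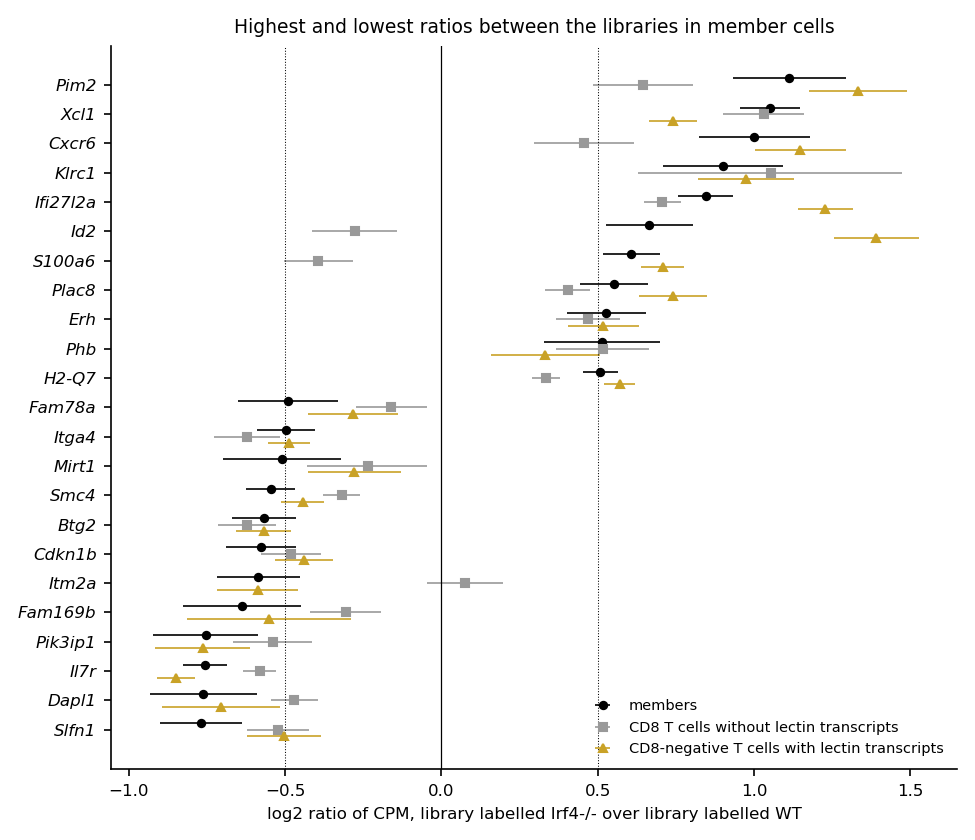
Log2 ratio of CPM, Irf4-/- label over WT label, of 11 of the 12 highest and the 12 lowest genes of the members, with the same ratio in CD8 T cells without lectin transcripts and in CD8-negative T cells with them. Lines are exact 95% intervals of counting error and dotted lines mark 0.5 and -0.5. Id2 and S100a6 are above 0 in members and below 0 in CD8 T cells without lectin transcripts.

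The size of these ratios also varied with Cd8b1. All 12 of the highest genes were above 0 in each of the 3 Cd8b1 classes, and 11 of them had a larger ratio at 1 Cd8b1 UMI than at 4 or more. Of the 12 lowest genes, 11 were below 0 in each class, but only 2 had a larger ratio in size at 1 Cd8b1 UMI than at 4 or more. Itga4, an integrin chain, was at -0.34 and -0.99 in these classes. Both sets were chosen by their ratio over all members. The exception was Fam169b, at 0.20 (-0.29 to 0.71) in members with 1 Cd8b1 UMI. Members with 1 Cd8b1 UMI were 35.99% of the members under the Irf4-/- label and 29.1% under the WT label, so the mix of classes differed between the libraries as well.

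S100a6, a calcium-binding protein of memory cells, was at 262 (Irf4-/-) and 172 (WT) CPM, a log2 ratio of 0.61, and 0.46 with members thinned. The other 11 of 12 S100 and cytoskeletal genes compared were not called, where 1.36% of all genes compared were called in either direction. Virtual memory genes were above 0 in 12 of 17, where 48.4% of all genes were, with a median of 0.03 and none called.

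Chemokine and effector genes at low levels were held by few cells. Ccl3 had 162 UMIs in 36 members under the Irf4-/- label and 36 UMIs in 30 members under the WT label, a log2 ratio of 1.89. The 10 highest cells held 80.2% of its UMIs under the Irf4-/- label and 44.4% under the WT label. Ccl4 had 665 (Irf4-/-) and 256 (WT) UMIs, a ratio of 1.102, with 67.4% (Irf4-/-) and 44.1% (WT) in the 10 highest cells. Both ratios turned in members with at least 4 Cd8b1 UMIs, to -0.99 (-2.31 to 0.21) and -0.68 (-1.09 to -0.28). Fasl, which encodes the death ligand of Fas, was spread over more cells, with a UMI in 21.2% of members under the Irf4-/- label and 7.96% under the WT label. It was at 25.9 (Irf4-/-) and 10.2 (WT) CPM, a log2 ratio of 1.34 (0.99 to 1.70).

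Haemoglobin transcripts under the Irf4-/- label came mostly from 1 cell. Hbb-bs had a log2 ratio of 5.12 between the libraries, and a single member cell under the Irf4-/- label held 4205 of the 4285 haemoglobin UMIs there (98.1%). Under the WT label members had 137 haemoglobin UMIs, of which the highest cell held 13. Without cells with 3 or more haemoglobin UMIs the Hbb-bs ratio was -0.79.

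For 7 of the named genes, with both intervals at least 0.1 from 0, the ratio had opposite signs in members and in CD8 T cells without lectin transcripts. Only the named genes, many picked for large ratios, were searched, so there is no share over all genes to set beside the 7. Fasl, Ccl3, Ccl4, S100a6, Id2 and Cish were above 0 in members and below 0 in those cells, and Oasl1 was the reverse. With members thinned to 2000 UMIs Oasl1 was at 0.44, the sign of the other cells. Among those CD8 T cells 16 of 873 (Irf4-/-) and 237 of 3889 (WT) had a UMI of Gzmk, Maf, Pdcd1 or Lag3, genes of activated T cells. Without them Fasl was at 1.24 and Ccl3 at 2.33 there, the sign of the members, which were not filtered in this way.

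**Figure D5:**
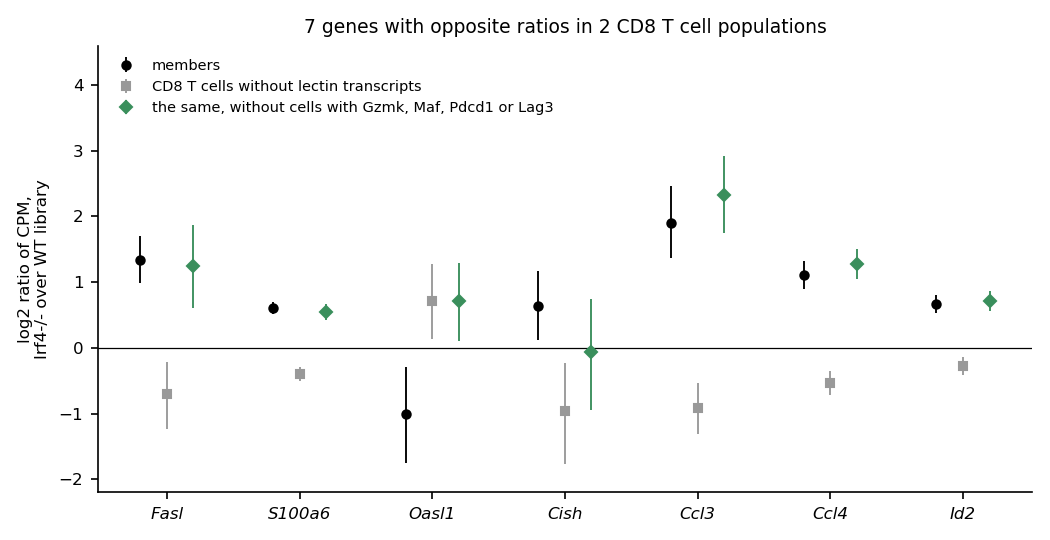
Log2 ratio of CPM, Irf4-/- label over WT label, of 7 genes in members, in CD8 T cells without lectin transcripts and in those CD8 T cells without the cells that had a UMI of Gzmk, Maf, Pdcd1 or Lag3. Lines are exact 95% intervals. Ccl3, Ccl4, Fasl, S100a6 and Id2 are below 0 in all CD8 T cells without lectin transcripts and above 0 once those cells are left out. Members were not filtered in this way.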

How the data were processed

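The deposited count matrices hold UMIs as integer counts that the authors made with Cell Ranger 6.1.1 per the file headers and the genome build mm10 per the submitters' processing notes. The labels' protocols describe sorted cells but name nuclei in library preparation. From these counts, barcodes were filtered on genes, UMIs and mitochondrial share, members were taken by the UMI rule, and UMIs were summed per library and population and divided by all UMIs of those cells (CPM). With 1 library per genotype no test could be made. A gene was called at an absolute log2 ratio of at least 0.5 between libraries, or at least 1 in both libraries between populations, among genes with a mean of at least 50 CPM. The members and the 41 gene lists were chosen with earlier results of these data known. Genes named were Irf4, those of the gate and the rule, the 12 at each end of each comparison (without predicted, mitochondrial, ribosomal, receptor segment, haemoglobin and sex-linked genes), all genes of the receptor, adaptor, coreceptor and CD3 lists, up to 6 of each other list with the largest ratios, and the 4 most abundant Trbv and Trav segments. Haemoglobin genes, the gamma chain genes Trgv2 and Tcrg-C2, genes with opposite signs in members and other CD8 T cells, and examples within Cd8b1 classes were singled out after their values were seen. Cells were thinned to 2000 UMIs at random (seed 11), leaving out shallower cells. Among members no cell was left out, and in the other CD8 T cells 1 (Irf4-/-) and 7 (WT) were. The scripts used python 3.11.15, numpy 2.4.6, scipy 1.17.1, pandas 2.3.3 and matplotlib 3.10.9, and were tested on simulated data. Upstream sequences came from RefSeq's promoter table for GRCm38.p6, and positions refer to that build. A result that needs an item withheld for evaluation is not reported here.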

Additional observations from a re-analysis of the deposited data

Results flagged for a closer look

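For 7 of the named genes log2 ratios between the libraries pointed one way in the members and the other way in CD8 T cells without lectin transcripts, here the other CD8 T cells. Both intervals were at least 0.1 from 0. Only the named genes, many picked for large ratios, were searched, so 7 is not a share of all genes. The difference between the populations was not tested, since there was 1 library per genotype. Fasl, the ligand of the death receptor Fas, was at 1.34 in members and -0.71 in the other CD8 T cells. S100a6, a calcium-binding protein of memory cells, was at 0.61 in members and -0.39 in the other CD8 T cells. Oasl1, an interferon-induced gene with few UMIs in members, was at -1.01 in members and 0.71 in the other CD8 T cells. Cish, a feedback inhibitor of STAT5 signalling, was at 0.63 in members and -0.96 in the other CD8 T cells. The chemokine gene Ccl3 was at 1.89 in members and -0.91 in the other CD8 T cells. Ccl4, another chemokine gene, was at 1.102 in members and -0.54 in the other CD8 T cells. Id2, an inhibitor of E proteins, was at 0.66 in members and -0.28 in the other CD8 T cells. 

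The CD8 T cells without lectin transcripts held 16 of 873 cells under the Irf4-/- label, and 237 of 3889 under the WT label, with a UMI of Gzmk, Maf, Pdcd1 or Lag3. Without these cells, a choice made after seeing the data, their ratio was 1.24 for Fasl, 0.54 for S100a6, 2.33 for Ccl3, 1.27 for Ccl4 and 0.71 for Id2, the direction of the members. The members were not filtered in the same way. Cish was then at -0.06, with an interval of -0.94 to 0.74, and Oasl1 at 0.71. With members thinned to 2000 UMIs their Oasl1 ratio was 0.44, so its opposite sign was lost. In members with 4 or more Cd8b1 UMIs Ccl3 was at -0.99 and Ccl4 at -0.68, the sign of the other CD8 T cells.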

How the results depend on the processing

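No paired analysis was possible because each genotype had 1 library and no replicate numbers, and leaving out a replicate was not possible for the same reason. The log2 ratio of member shares, 0.62 as reported, was 0.28 with at least 1 lectin UMI, 0.82 with at least 3, 0.81 without the deepest 10% of cells, 0.29 with cells thinned before the rule and 0.24 with at least 4 Cd8b1 UMIs. With at least 20 UMIs in place of 50 CPM, 477 genes were higher and 621 lower between the libraries, 190 and 87 against CD8 T cells without lectin transcripts, and 38 and 66 against CD8-negative cells. Between the libraries 40 genes were lower with cells thinned after the rule and 36 with at least 4 Cd8b1 UMIs. Against CD8 T cells without lectin transcripts the lower count was 3 with at least 3 lectin UMIs, by median ratio scaling, without mitochondrial and ribosomal genes and by the mean of per-cell CPM, 4 without the deepest 10% and 2 with cells thinned. Against CD8-negative cells the higher count was 2 with at least 1 lectin UMI or 4 Cd8b1 UMIs, and 1 with Cd8a and Cd8b1 summing to 3, without mitochondrial and ribosomal genes or thinned. The lower count there was 2 with at least 3 lectin UMIs, and 4 without the deepest 10% or with at least 4 Cd8b1 UMIs. Apart from the 20 UMI minimum, which admits more genes, the cause was not tested.

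Signs between the libraries turned for 8 genes. With at least 4 Cd8b1 UMIs they were -0.99 for Ccl3, -0.68 for Ccl4, 0.33 for Klra5 and -0.14 for Nr4a2. With cells thinned after the rule they were -0.30 for Nr4a2 and 0.44 for Oasl1. Hba-a1 gave -0.58 with at least 1 lectin UMI, -1.88 with at least 3, -2.30 without the deepest 10% and -1.76 without haemoglobin cells. Hba-a2 gave -0.25, -1.28, -1.74 and -0.90 in the same order, and Hbb-bs -0.83, -1.25 and -0.79 in the last 3. Of 980 recomputed gene values between the libraries 888 stayed within the counting interval of the reported ratio, 75 moved and these 17 turned. Against the 2 other populations none turned. There a gene could turn only if its ratio reached the call threshold and both libraries changed sign together. That outcome was nearly fixed beforehand and says little about stability. The alternatives with at least 4 Cd8b1 UMIs, without haemoglobin cells, without the highest cell of a gene and without cells with Gzmk, Maf, Pdcd1 or Lag3 were chosen after seeing the data.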
